A study of Mus musculus with 45 samples.

Results

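Maturation of red cell precursors was followed from the authors' class Int to their class Late in Ter119+ erythroblasts of mice with an intact Stag2 gene (Stag2 WT). The members were the 19317 nuclei of 3 single-nucleus accessibility (ATAC) libraries that carried the genotype WT and the class Int or Late, out of 34073 nuclei in the deposited table of gene scores. WT replicates 1, 2 and 3 gave 2236, 2563 and 3999 Int nuclei and 4527, 3021 and 2971 Late nuclei. Each library was sorted Ter119+ erythroblasts prepared as a 10x Genomics multiome from mice studied 6 to 8 weeks past their final pIpC dose, the compound that induces the deletion in KO animals. The WT and KO groups both received it, and the labels name no Cre driver and no age. The KO libraries (Stag2 deleted, 3 replicates, 14048 Int and Late nuclei) are used below only to show where WT differed. The labels do not state that replicates are separate animals, so p-values refer to variation between libraries, which may be partly technical. That variation was partly pooled over genes, as given below. The series held 45 samples in all; the other assays were not analysed here.

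Erythroblasts pass from large dividing precursors to small cells that condense their chromatin, stop dividing, fill with haemoglobin and expel the nucleus. Gata1, Klf1 and Tal1 are transcription factors of this lineage, whereas Kit, Gata2, Myb and Myc mark its progenitor end. Late precursors clear organelles and break down most of their proteins, and the nuclear exporter Xpo7 takes part in emptying the nucleus before enucleation.

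A gene score sums the ATAC signal in and around a gene; it measures accessibility and not RNA. For each library, the mean score of a gene was taken within each class and expressed per 1000000 of the total for all genes, so a score of 100 is 100 parts per 1000000 of the summed gene score. Scores of different genes cover different lengths, so differences are taken within a gene; where levels of marker genes are set beside each other, they are not per length. Differences are Late minus Int in log2(score + 1), tested with limma with the library as a block. A value of 1 is close to a 2-fold change, and less than that for genes with low scores. All positions are on mm10, counted from 1.

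The labelled cell type was checked against marker genes, as a description only. The 9 erythroid marker genes found in the table summed to between 1770 and 1960 in the Int libraries and between 2220 and 2280 in the Late libraries. Their mean score per gene was 209 in Int and 250 in Late, against a median over all genes of 13.6 and 9.71. The markers of neutrophils and monocytes averaged 8.83 and 7.34, those of macrophages 5.79 and 2.62, those of mast cells and basophils 3.53 and 1.71, and those of B and T cells 14.8 and 9.82. Megakaryocyte markers averaged 42.8 and 35.6, led by Gp9 at 133 in Int. None of the marker genes was at 0 in either class. The part of other cell types in the results below was not tested.

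Late nuclei were shallower than Int nuclei and had more of their fragments in peaks. The median number of fragments per nucleus was 11889.7 ± 1540 in Int and 6345 ± 582 in Late (SD, n = 3 libraries), lower in Late in 3 of 3 pairs. Peaks took 58% ± 3.48 of the fragment ends in the median Int nucleus and 65% ± 1.22 in the median Late nucleus, and promoters took 46% ± 3.51 and 51.7% ± 1.76. The nucleosome ratio, higher where more fragments span a nucleosome, went from 0.778 ± 0.0724 to 0.838 ± 0.0801. These 4 measures moved one way in every pair, and the exact sign-flip test gave p = 0.25, the smallest that 3 pairs allow (two-sided). Enrichment at transcription start sites differed by less than the spread between libraries, at 33 ± 2.75 and 33.5 ± 2.12 (exact sign-flip p = 0.5).

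The median Int nucleus had a score above 0 for 7242 ± 605 genes and the median Late nucleus for 4993 ± 325. In subsets of 1300, 1253 and 2035 nuclei per class of WT replicates 1, 2 and 3 that were matched for fragments, the values were 5046.5 and 5230.67. These subsets were matched for fragments only: 60.2% and 64.6% of the ends lay in peaks. The number of genes that together held 50% of the summed score was 2872 ± 163 in Int and 2485 ± 45 in Late, a fall by 387 in all nuclei and by 199 in matched nuclei (exact sign-flip p = 0.25 for both). The 1000 highest genes held 25.8% ± 1.02 and 28.1% ± 0.406 of the score, and in matched nuclei the share was 0.913 percentage points higher in Late. The 100 highest genes took 5.31% ± 0.203 in Int and 5.41% ± 0.094 in Late (exact sign-flip p = 0.5), and in matched nuclei 5.58% and 5.36%, the opposite order (exact p = 0.25). Selected values in matched nuclei are given below.

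The cell classes do not follow the deposited clusters exactly. Of WT Int nuclei, 41% lay in cluster C11, 30% in C6, 20.7% in C9 and 7.14% in C5, while 95.5% of Late nuclei lay in C3. The libraries differed in make-up: C6 held 39.3% of the Int nuclei of WT replicate 3 but 22% and 22.4% of those of replicates 1 and 2, and C9 held 12.8% against 24.2% and 30%. Cell barcodes were shared with another WT library by 398 of the Int and Late nuclei.

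Of 17108 genes tested, 12521 (73.2%) passed an adjusted p of 0.05: 4735 (27.7%) were higher in Late nuclei and 7786 (45.5%) lower. How the classes were assigned is not given in the sources used here. If they were drawn from the same accessibility, part of any difference is built in. The p-values rest on a variance partly shared over genes, so they say little of how alike the 3 libraries were for 1 gene. Xpo7 differed by 2.10, 2.38 and 2.32 in WT replicates 1, 2 and 3, with an SE of 0.043. The gene Tbcel differed by 1.70 in each, with a similar SE of 0.039. Without limma's mean-variance trend 11119 genes were called, and the adjusted p of Xpo7 was far larger than the one printed below. For 69.5% of the genes, all Int libraries lay on one side of all Late libraries. On the log2 scale 1803 genes fell by more than 1 and 54 rose by more than 1; the counts were 467 and 179 with quantile normalization, 1248 and 67 in matched nuclei, and 598 and 27 with a pseudocount of 5. The balance of all calls depended on the scaling as well. The median of all genes was -0.12, and higher genes were 37.8% of calls; with quantile normalization they were 54.7%, with cyclic loess 50.9%, with median centring 54.4%, among genes with a mean score of at least 20 they were 58.8%, with no filter 25.2%, and in matched nuclei 42.8%. Small differences are therefore read below against the median of -0.12. Neighbouring genes share signal, and the higher genes lay in 1858 stretches and the lower ones in 4607 when starts within 100000 bases were joined.

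Among the 12 leading genes that rose, the largest difference was that of Xpo7 (14, 70654246 to 70766628, minus strand), the exporter that acts in nuclear condensation. Its score was 66.8, 61.4 and 66.2 in the Int nuclei of WT replicates 1, 2 and 3 and 289, 323 and 335 in the Late nuclei. Every Late library lay far above every Int library, a difference of 2.27 (SE 0.043, limma adjusted p = 2.4e-26). In matched nuclei the difference was 2.28, and 47% of Int and 88% of Late nuclei had a score above 0. With quantile normalization the difference was 2.18, below that of Zfp874a (2.24). The gene Dok2 beside Xpo7 rose by 1.15.

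Tmcc2, which encodes a coiled-coil membrane protein, was at 258, 217 and 251 in Int and at 695, 658 and 704 in Late, a difference of 1.50 (SE 0.045, limma adjusted p = 1.03e-21). None of 4 tested neighbours of Tmcc2 was called in the same direction. Tmem131l had no tested neighbour, so whether its rise was shared cannot be told. Tmem131l was at 101, 92 and 89 in Int and at 293, 267 and 289 in Late (difference 1.58).

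Replicates lay close together for Tbcel, a relative of the tubulin folding cofactors, at 51.1, 51.6 and 51.3 in Int and 168, 170 and 170 in Late (difference 1.70, SE 0.039, limma adjusted p = 2.67e-24). Mkrn1, a ubiquitin ligase of late red cell precursors, rose from 109, 106 and 110 to 264, 255 and 279 (difference 1.29). Specc1 went from 167, 153 and 158 to 462, 409 and 447 (difference 1.46). All these genes kept Int and Late libraries apart, as did 69.5% of all genes tested.

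The other 6 of the 12 leading genes that rose were Zfp874a (1.88), Fam229a (1.78), Tmem200b (1.59), Khnyn (1.49), Fam213a (1.32) and Slc24a1 (1.29), with Late means between 37.8 and 136. Zfp874a has a near copy, Zfp874b, next to it that rose by 1.70, so the signal of the pair may not be separable. Of the neighbours of Fam229a, Tssk3 rose by 1.15.

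**Figure D1:**
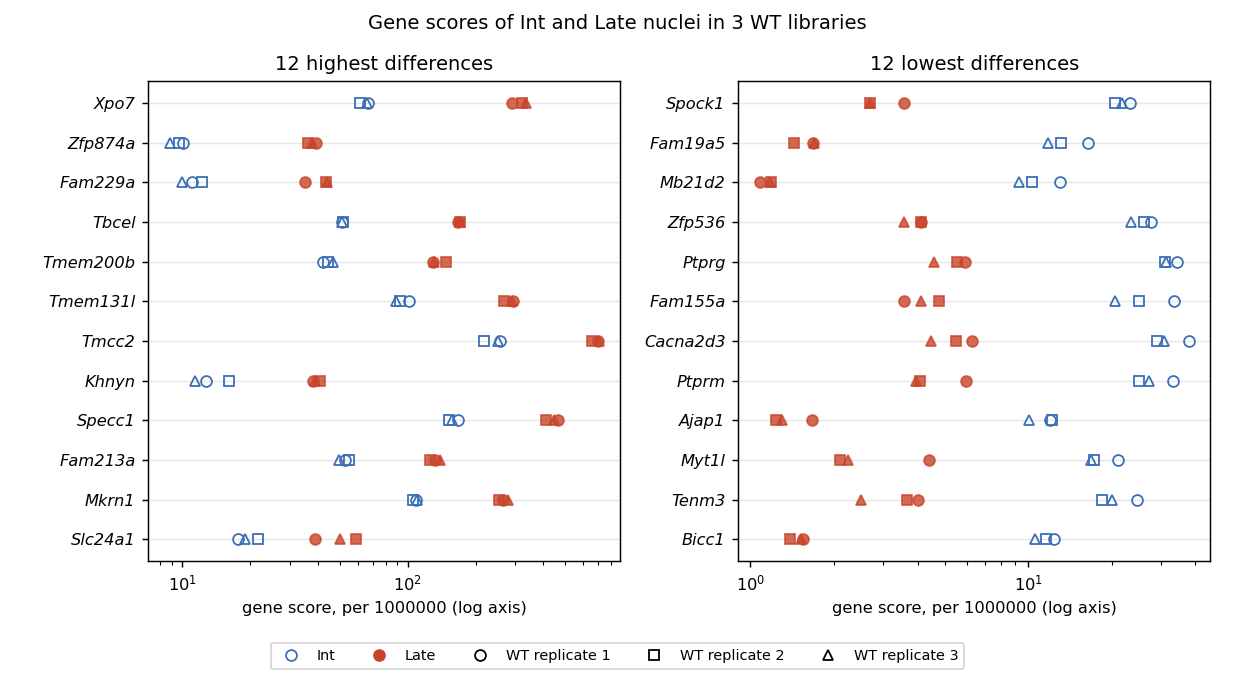
Gene scores per 1000000 (log axis) of the 12 genes with the highest and the 12 with the lowest Late minus Int difference by the naming rule, 1 symbol per WT library, open for Int and filled for Late. For all 24 genes the Int and Late symbols do not overlap, and Xpo7 moves from between 61.4 and 66.8 to between 289 and 335. The 24 genes were chosen for large differences, and Int and Late libraries also lie apart for 69.5% of all genes tested.

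The 12 leading genes that closed were Spock1, Fam19a5, Mb21d2, Zfp536, Ptprg, Fam155a, Cacna2d3, Ptprm, Ajap1, Myt1l, Tenm3 and Bicc1. Their median length in the deposited gene table was 451979 bases, from 103523 to 816922, against a median of 27911 for the 12 that rose. Spock1 (13, 57421195 to 57908332, minus strand), which encodes a proteoglycan of the extracellular matrix, was at 23.2, 20.5 and 21.7 in Int and at 3.57, 2.69 and 2.69 in Late, a difference of -2.52 (SE 0.14, limma adjusted p = 7.31e-16). The receptor phosphatase Ptprg was at 34.4, 31.1 and 31.4 in Int and at 5.91, 5.54 and 4.6 in Late (difference -2.40). The sizes of these falls depend on the settings: with a pseudocount of 5 the 12 differences ran from -1.85 to -1.35, and with quantile normalization from -1.98 to -1.5. Of these 12 genes only Bicc1 had a tested neighbour.

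The scores of these genes were low and came from a minority of nuclei. Spock1 was above 0 in 23.8% of Int and 4.07% of Late nuclei, and in 15.1% and 4.55% of matched nuclei. Cacna2d3, a calcium channel subunit, went from 28.1% to 6.06%, and from 18.7% to 7.12% in matched nuclei. By cluster, the mean Spock1 score was 16.9 ± 3.82 in C6, mostly Int, and 2.72 ± 0.38 in C3, mostly Late (SD, n = 3 libraries, over their Int and Late nuclei). The median number of fragments was 5353 per Int nucleus of C6 and 6492 per Late nucleus of C3; the part of depth in the fall was not tested. For Cacna2d3 the cluster means were 28.7 ± 6.62 in C6 and 4.62 ± 0.653 in C3. The sparse cluster C2, with 188 Late nuclei, varied too much between libraries to be placed, at 6.57 ± 5.7 for Spock1 and 29.2 ± 25.9 for Cacna2d3.

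The promoters of the leading genes were read to see whether opening and closing genes differ in letters near their starts. The 150 bases upstream of 4 of them are shown, in gene orientation, as RefSeq sequence on GRCm38.p6; capitals mark matches to CCNCNCCC on either strand, a loose form of the CACCC box that Klf1 binds. The motif GATAA, the core that GATA factors bind, has no match in these stretches.
Tmcc2 (higher in Late), chr1:132391387-132391536, minus strand: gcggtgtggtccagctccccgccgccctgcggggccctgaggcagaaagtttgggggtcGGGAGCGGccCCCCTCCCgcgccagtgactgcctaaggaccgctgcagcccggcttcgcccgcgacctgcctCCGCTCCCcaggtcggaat
Mkrn1 (higher in Late), chr6:39420370-39420519, minus strand: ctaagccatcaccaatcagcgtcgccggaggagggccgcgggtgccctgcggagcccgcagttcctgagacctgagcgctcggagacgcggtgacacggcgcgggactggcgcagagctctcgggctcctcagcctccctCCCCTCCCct
Spock1 (lower in Late), chr13:57908333-57908482, minus strand: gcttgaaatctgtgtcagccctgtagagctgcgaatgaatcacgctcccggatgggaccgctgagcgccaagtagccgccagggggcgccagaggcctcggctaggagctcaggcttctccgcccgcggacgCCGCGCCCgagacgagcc
Ptprg (lower in Late), chr14:11553403-11553552, plus strand: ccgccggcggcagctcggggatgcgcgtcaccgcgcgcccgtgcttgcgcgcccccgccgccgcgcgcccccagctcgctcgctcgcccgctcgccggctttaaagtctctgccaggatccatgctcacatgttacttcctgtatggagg

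Matches were counted in the leading genes. Of the 12 highest genes 10 had a RefSeq promoter, and in the 250 bases upstream none of these held GATAA and 7 held CCNCNCCC; of the 12 lowest 8 had one, with 1 and 4. The CG dinucleotide occurred 5 to 34 times in the first group (median 14) and 3 to 43 times in the second (median 30.5), against a median of 14 over all promoters found. Over all genes tested, 66.1% had a promoter in the table, which is under 80%, so a comparison of called genes on these letters is void. As a description, GATAA lay in 15.8% and CCNCNCCC in 62% of the promoters found. The motifs and the 4 genes were chosen after the values were seen.

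Length and score both went with the difference over all genes. The longest quartile, from 50549 bases, had a median difference of -0.50 and 68.1% of its genes were lower; the shortest quartile had a median of -0.12. By mean score, the lowest quartile had a median of -0.63, with 72.8% lower. The highest had a median of 0.15, with 60.1% higher and 19.8% lower. Within the lowest score quartile the longest genes stood at -1.04 and the shortest at -0.63, within the second at -0.71 and -0.17, and within the highest at 0.13 and 0.14. Quantile normalization brought the 4 score quartiles to between 0.03 and 0.05, and the longest genes of the lowest and second score quartiles then stood at -0.35 and -0.34. Whether the authors weighted the score by gene length is not given in the sources used here. The gene lists below are set against all genes tested and were not matched for length or score.

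At the extreme, 169 of the 171 longest genes, all of at least 560561 bases, were lower in Late nuclei and 1 was higher, with a median of -1.40, and of -1.24 in matched nuclei. Csmd1, a giant gene with a product of complement-like domains, was at 71.2, 53.1 and 56.2 in Int and at 13.3, 11.3 and 10.6 in Late (difference -2.26). The dystrophin gene Dmd was at 48.6, 36.2 and 43.2 and at 22.6, 17.8 and 17.2 (difference -1.11). The exceptions were Frmd4a, which rose by 0.22, and Sox6, an erythroid transcription factor gene, which was at 295, 265 and 248 in Int and at 313, 264 and 262 in Late and was not called (difference 0.05, limma adjusted p = 0.247). Sox6 was called higher in matched nuclei (0.15) and lower with quantile normalization (-0.096). Mir3084-1 was left out of this set, since its listed span of 35832163 bases cannot be that of a microRNA. The genes of this paragraph were chosen after their values were seen.

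**Figure D2:**
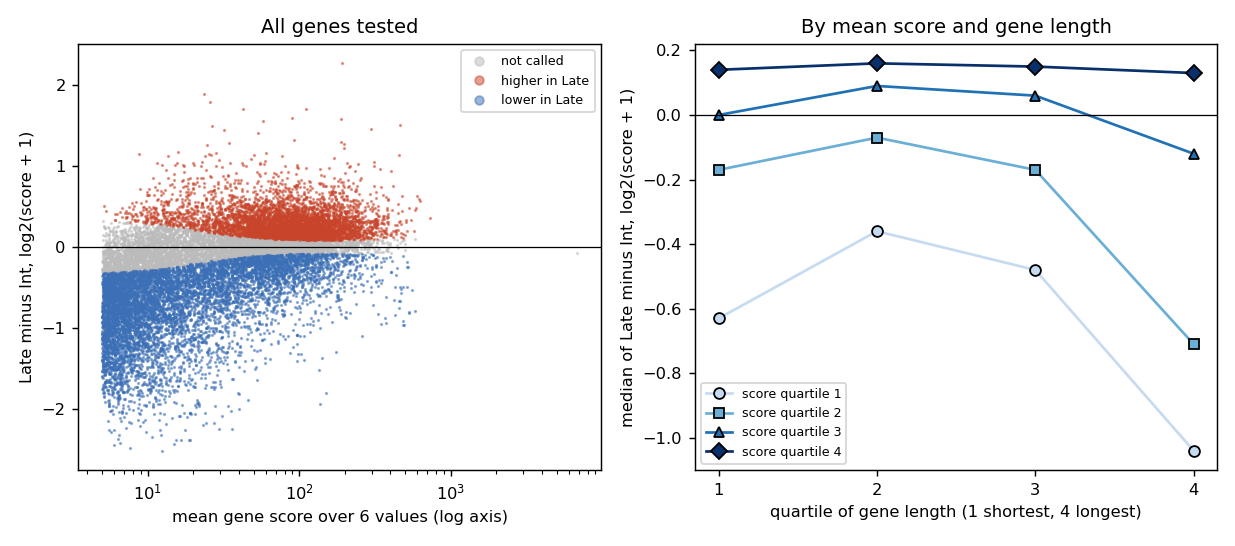
Left, Late minus Int in log2(score + 1) for the 17108 genes tested against their mean gene score (log axis), coloured by call; right, the median difference by quartile of gene length, 1 line for each quartile of mean score. Falls widen towards low scores, and within the lowest score quartile the longest genes reach a median of -1.04.

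The Early class, held in 102 nuclei of WT replicate 1 and 235 of replicate 2, was set beside Int for the long genes. Over the 171 longest genes, the median of Int minus Early was 0.65 and 0.51 in the 2 libraries, followed by Late minus Int of -1.49 and -1.33. Over the longest quartile Int minus Early was -0.11 and -0.13. It was -0.17 and -0.17 over all genes tested and -0.23 and -0.24 over the shortest quartile. Spock1 was at 13.7 and 11.9 in Early, 23.2 and 20.5 in Int and 3.57 and 2.69 in Late. Early nuclei were the deepest, with a median of 43844 and 41018 fragments, and had lower enrichment at start sites, 19.6 and 19.4. Replicate 3 held 20 Early nuclei and is not used for that class. These Early values were looked at after the Int and Late values were known, and carry no test.

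Of 30 stem and progenitor genes, 26 were tested, and 23 (88.5%) were lower in Late nuclei and 1 was higher, against 45.5% lower and 27.7% higher over all genes. Their median was -0.84 against -0.12 over all genes. In matched nuclei 19 were lower and 2 higher, with a median of -0.62. With quantile normalization 19 (73.1%) were lower and 3 higher, with a median of -0.48, against 31.9% lower and 38.5% higher over all genes. Myc, the growth regulator, was at 51.4, 60.5 and 34.9 in Int and at 19.4, 17.6 and 16.9 in Late, a difference of -1.36 (SE 0.092, limma adjusted p = 1.12e-13). WT replicate 3 had the lowest Int value, and its Late value still lay below every Int library. Within Int, Myc was at 93 ± 9.73 in cluster C9, 33.5 ± 2.7 in C11 and 29.6 ± 8.79 in C6 (SD, n = 3 libraries), and between the largest Int and Late clusters alone the difference was -0.88. The stem cell factor receptor Kit was at 13.9, 17.6 and 14.1 and at 5.36, 5.66 and 4.81 (difference -1.36, in matched nuclei -1.07, with quantile normalization -0.82).

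Gata2, the progenitor GATA factor, was at 21.1, 24.3 and 17.4 in Int and at 12, 11.9 and 12.9 in Late; the groups stayed apart, but the difference of -0.72 was -0.39 in matched nuclei and -0.40 between the largest clusters. Myb fell by 0.67, and Meis1 and Mecom, regulators of stem cells, fell by 1.44 and 1.39 (Meis1 -1.08 in matched nuclei and -0.81 with quantile normalization). The gene that rose was Runx1 (difference 0.39, from 146, 136 and 131 to 191, 175 and 175), in matched nuclei 0.45. Mecom (596713 bases) is among the 171 longest genes, whose median was -1.40. Meis1 (138542 bases), Kit (81736) and Runx1 (224609) lie in the longest quartile, which had a median of -0.50. Myc, Gata2 and Myb are shorter. The part of length and low score in the falls of this list was not tested. All 3 of Myc, Gata2 and Kit were higher still in Early nuclei of replicates 1 and 2, with Myc at 155 and 163, Gata2 at 116 and 116, and Kit at 61 and 67.

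**Figure D3:**
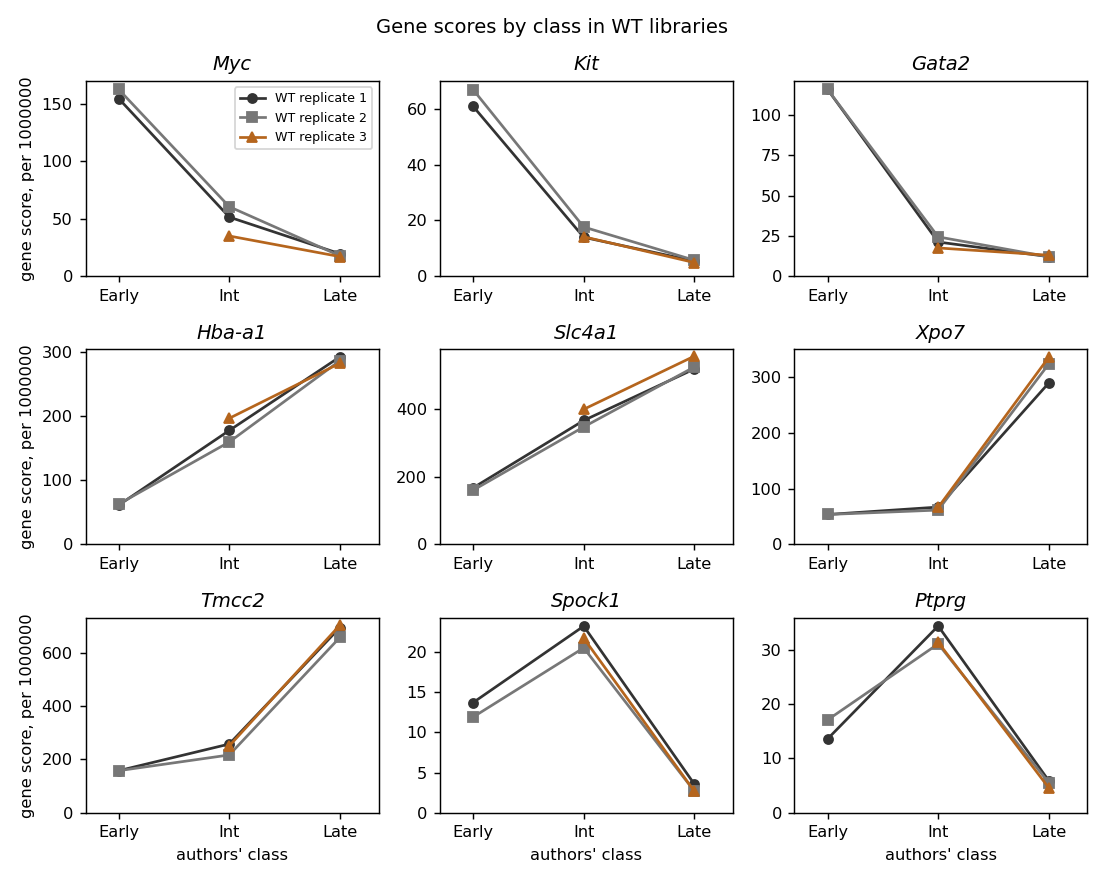
Gene scores per 1000000 of 9 genes in Early, Int and Late nuclei, 1 line per WT library (WT replicate 3 has no Early value; vertical axes start at 0). Myc, Kit and Gata2 descend through the classes, Hba-a1 and Slc4a1 climb, Xpo7 and Tmcc2 rise mainly from Int to Late, and Spock1 and Ptprg peak in Int.

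Erythroid transcription factor genes split. Of 22 tested, 9 were higher (40.9%, against 27.7% of all genes) and 13 lower (59.1%, against 45.5%), with a median of -0.12, the median of all genes. With quantile normalization 36.4% were higher and 59.1% lower, against 38.5% and 31.9% of all genes. Gata1 (X, 7959260 to 7976574), the lineage's main GATA factor, was at 90.8, 88.4 and 88.8 in Int and at 74.3, 74.3 and 72.7 in Late, a small fall that the tight libraries kept apart (difference -0.27, SE 0.041, limma adjusted p = 9.72e-07). With median centring the call ended (-0.099, limma adjusted p = 0.189). Klf1 was at 257, 243 and 257 and at 231, 223 and 212 (difference -0.18), and with median centring at -0.0083 (limma adjusted p = 0.933). Tal1 fell by 0.15, near the median of all genes; without replicate 3 it stood at -0.072 and was not called (limma adjusted p = 0.0799), and with median centring it stood at 0.021.

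The largest fall of the list was that of Gfi1b, a repressor of the lineage, from 170, 170 and 148 to 92.1, 82.2 and 73.4 (difference -0.97, limma adjusted p = 1.31e-18). Ikzf1 fell by 0.73 and Bcl11a, a repressor of embryonic and fetal globin genes, by 0.59, or by 0.37 in matched nuclei. The genes that rose were led by Cbfa2t3 (0.63), a corepressor partner of Tal1, Mafk (0.52), Bach1 (0.52), E2f2 (0.51) and Foxo3 (0.50). Foxo3, a driver of late erythroid genes, went from 246, 223 and 236 to 346, 321 and 330. Spi1, the myeloid factor, was at 9.85, 12.2 and 8.82 and at 6.55, 8.33 and 8.08 (difference -0.38). Its call was lost in matched nuclei (-0.19, limma adjusted p = 0.315), without replicate 1 (-0.31) and without replicate 2 (-0.32), and it stood at 0.17 with quantile normalization and 0.16 with cyclic loess.

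Every globin gene tested was higher in Late nuclei, 9 of 9, against 27.7% of all genes. In the highest quartile of mean score 60.1% of genes were higher. The median of the globin genes was 0.56, against -0.12 over all genes. Hba-a1 (11, 32283672 to 32284486, plus strand) was at 178, 160 and 197 in Int and at 293, 287 and 283 in Late (difference 0.69, SE 0.044, limma adjusted p = 3.86e-14), and Hba-a2 was at 160, 136 and 182 and at 312, 276 and 324 (0.94). These copies are near identical and lie in one cluster with Hbq1a (1.02), so their signals may be shared; all 10 tested neighbours of Hba-a1 rose.

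Among the beta globins, adult Hbb-bs was at 331, 288 and 340 and at 444, 429 and 442 (0.46), while embryonic Hbb-y rose by 0.21 and Hbb-bh1 by 0.30 with overlapping libraries. These genes also lie in one cluster, so their signals may be shared. Of 10 tested neighbours of Hbb-y, which include Hbb-bs, 6 rose and 1 fell. With cyclic loess Hbb-y stood at 0.025 and was not called. Hbb-bh1 lost its call without replicate 1 (0.33) and without replicate 2 (0.22), and also without the replicate block and with no filter. In Early nuclei Hba-a1 was at 61.3 and 62.9 and Hbb-bs at 106 and 93.6, so that both climbed at each step.

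Genes of late erythroid life and organelle clearance were mostly higher. All 39 were tested, and 29 (74.4%) were higher and 4 lower, against 27.7% and 45.5% of all genes, with a median of 0.44, and of 0.42 in matched nuclei. Of the genes in the highest quartile of mean score, 60.1% were higher and 19.8% lower, with a median of 0.15. With quantile normalization 28 (71.8%) were higher and 4 lower, with a median of 0.35, against 38.5% and 31.9% of all genes. Besides Xpo7 and Mkrn1 they included the hybrid ubiquitin ligase Ube2o (from 203 to 420, difference 1.05), the mitophagy receptor Bnip3l (from 113 to 190, 0.75), the autophagy kinase Ulk1 (0.69), and Trim58, a ligase of enucleating cells (from 125 to 202, 0.69), all as means of 3 libraries. The survival gene Bcl2l1 went from 211, 195 and 213 to 445, 398 and 400 (difference 1.0, SE 0.041, limma adjusted p = 1.5e-18). The 4 lower genes were Hemgn (-0.63), Gmpr (-0.63), Alox15 (-0.43) and Ubac1 (-0.09). Gmpr lost its call in matched nuclei (-0.33, limma adjusted p = 0.0799) and with quantile normalization (-0.09).

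Heme synthesis genes gave 8 rises (57.1%) and 4 falls (28.6%) of 14 tested, against 27.7% and 45.5% of all genes, with a median of 0.12. With quantile normalization 6 rose (42.9%) and 5 fell (35.7%), near the 38.5% and 31.9% of all genes, with a median of 0.05. Alas2, the first enzyme of the erythroid pathway, went from 94.6, 89.3 and 93.6 to 120, 119 and 123 (difference 0.38), and Fech, the last enzyme, rose by 0.42. The falls included those of the transporters Tmem14c (-0.41) and Slc25a38 (-0.36) and of the enzyme Alad (-0.29). Iron genes gave 5 rises (33.3%) and 7 falls (46.7%) of 15, 3 of each in matched nuclei, and 4 and 7 with quantile normalization. Ncoa4, which delivers ferritin for breakdown, rose by 0.40 and Ftl1, a ferritin chain, by 0.29, while the endosomal reductase Steap3 fell by 0.59. The transferrin receptor Tfrc was at 169, 161 and 176 and at 187, 173 and 177, overlapping libraries with a difference of 0.087 (limma adjusted p = 0.0413). It was not called in matched nuclei (0.055), without replicate 1 (0.055) or without replicate 2 (0.08), and was -0.059 with quantile normalization. The erythropoietin receptor Epor was at 155, 152 and 160 and at 170, 162 and 154 and was not called (difference 0.053, limma adjusted p = 0.227).

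The red cell membrane list gave 12 rises (41.4%) and 10 falls (34.5%) of 29, against 27.7% and 45.5% of all genes. With quantile normalization the balance turned, to 10 rises (34.5%) and 13 falls (44.8%), against 38.5% and 31.9% of all genes. Slc4a1 (11, 102348820 to 102365281, minus strand), the anion exchanger band 3, was at 366, 347 and 399 in Int and at 518, 524 and 556 in Late (difference 0.52, SE 0.045, limma adjusted p = 2.67e-11). Epb41, the protein 4.1 gene, went from 285, 262 and 283 to 553, 505 and 529 (0.93). The water channel Aqp1 moved the other way, from 260, 256 and 275 to 164, 136 and 131 (-0.88), and beta spectrin Sptb fell by 0.38.

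Among 28 genes of enucleation and nuclear condensation, 8 rose (28.6%) and 12 fell (42.9%), against 27.7% and 45.5% of all genes, with a median of -0.06. With quantile normalization 5 rose (17.9%) and 15 fell (53.6%), against 38.5% and 31.9% of all genes. Xpo7, Tmcc2 and Trim58 stood at the top. The formin Diaph3 went from 129, 127 and 115 to 70.7, 59.8 and 60.1 (difference -0.96), Plek2, a regulator of actin, fell by 0.83, the small GTPase Rac2 by 0.74, and lamin B1 (Lmnb1) by 0.60. Glycolysis and antioxidant genes gave 15 rises (46.9%) and 7 falls (21.9%) of 32, against 27.7% and 45.5% of all genes, led by catalase, Cat (0.98), and by Bpgm (0.91), the enzyme that makes the effector of oxygen release; hexokinase genes Hk1 and Hk2 fell by 0.40 and 0.61; the call of Hk2 was lost with quantile normalization (-0.13).

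The histone genes, which package newly made DNA, were mostly lower. Of 65 replication-dependent histone genes, 45 were tested, and 41 (91.1%) were lower, against 45.5% of all genes, and none higher; their median was -0.57, and -0.69 in matched nuclei. Their summed score was 18100 to 19630 in the Int libraries and 12110 to 12890 in the Late libraries. The loss lay in the cluster on chromosome 13 (21715713 to 23764412), where 39 of 41 tested histone genes fell with a median of -0.62 and the mean summed score went from 17460 to 11180. The 12 other tested genes of that stretch had a median of -0.08, with 2 higher and 4 lower. Outside it the values were smaller: Hist4h4, alone on chromosome 6, was at 514, 494 and 463 in Int and at 520, 508 and 471 in Late, and the 3 on chromosome 11 had a median of -0.19.

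Within the cluster, Hist1h4k (13, 21750145 to 21750553, minus strand) was at 214, 220 and 216 in Int and at 61.3, 52.4 and 52.8 in Late, a difference of -1.95 (SE 0.044, limma adjusted p = 1.59e-24). Its neighbour Hist1h2bn was at 232, 240 and 230 and at 74.2, 62.5 and 62.3 (difference -1.81). Histone genes are short, close together and similar in sequence, so single values may share signal.

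Of 49 DNA replication and mitosis genes tested, 10 were higher (20.4%) and 27 lower (55.1%), with a median of -0.13, against 27.7%, 45.5% and -0.12 over all genes. The distance from all genes rests on the scaling: with quantile normalization 10.2% were higher and 59.2% lower, against 38.5% and 31.9% of all genes, and in matched nuclei 10.2% and 46.9%, against 25.7% and 34.3%. The falls were led by Tyms (-1.29), Pola1 (-1.18), Cdk1 (-0.95) and Rrm1 (-0.89), which serve nucleotide supply, DNA synthesis and mitotic entry. The rises were led by the cell cycle inhibitor Cdkn1b (0.31) and Kif20a (0.21). Of 23 cytokine receptor and JAK-STAT genes, 5 were higher (21.7%) and 10 lower (43.5%), near the shares of all genes, and with quantile normalization 9 were higher and 9 lower. Il3ra, a chain of the interleukin-3 receptor, went from 10.2, 14.3 and 7.55 to 2.17, 2.15 and 1.74 (difference -1.92, with quantile normalization -1.11). The kinase genes Pim2 and Pim1 rose by 0.81 and 0.46.

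Ribosomal protein genes were mostly slightly higher. Of 85 tested, 63 (74.1%) were higher and 7 (8.24%) lower, against 27.7% and 45.5% of all genes, with a median of 0.24. In the highest quartile of mean score 60.1% of genes were higher and 19.8% lower, with a median of 0.15. With quantile normalization 48 were higher and 13 lower, against 38.5% and 31.9% of all genes. The exceptions were led by Rpl10l (-1.38), a copy of a large subunit gene, and Rps20, of the small subunit, which went from 43.9, 49.4 and 38.6 to 16.4, 15.4 and 17 (difference -1.37). With quantile normalization Rpl10l stood at -0.62 and Rps20 at -1.19. Interferon response genes gave 12 rises (50%) and 7 falls (29.2%) of 24, against 27.7% and 45.5% of all genes, and in matched nuclei 10 and 3. The rises were led by Rsad2 (from 68.3, 60.9 and 67.5 to 130, 132 and 127, difference 0.98) and Ifit1 (0.79).

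Within the cohesin list the paralogous subunits moved apart. Stag1 (9, 100643623 to 100958544, plus strand) was at 143, 139 and 139 in Int and at 73.8, 74 and 67 in Late, a difference of -0.96 (SE 0.04, limma adjusted p = 2.28e-18) that was -0.97 in matched nuclei. Stag2 (X, 42149412 to 42277186, plus strand) was at 57.6, 60.3 and 62 and at 67.5, 70.2 and 71.1 (difference 0.21, SE 0.045, limma adjusted p = 0.00013), with Int and Late libraries apart for both genes. Of 17 cohesin and CTCF genes tested, 6 were higher (35.3%) and 7 lower (41.2%), near the shares of all genes. Pds5a, a cohesin regulator, fell by 0.66 and the ring subunit Smc1a by 0.54, whereas the release factor Wapl rose by 0.43 and the loader Mau2 by 0.41. In the Bcl2 family 4 of 14 rose (28.6%, near the 27.7% of all genes) and 3 fell (21.4%, against 45.5%), with Pmaip1 (-1.44) and Bcl2 itself (-1.09) opposite to Bcl2l1. With quantile normalization Pmaip1 stood at -0.73, Bcl2 at -0.55 and Bcl2l1 at 0.90.

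Lists of other lineages were read against the 45.5% of all genes that were lower and the 27.7% that were higher. Of 82 olfactory receptor genes tested, out of 1093, 6 were higher and 53 lower (median -0.41); 5 of 6 Hox genes were lower and Hoxc10 was higher, a call lost without replicate 3 (0.12). With quantile normalization 2 Hox genes were higher and 1 lower, and in matched nuclei 1 was higher and 3 lower. Among neutrophil and monocyte markers 1 of 15 rose and 8 fell, among macrophage markers 2 of 9 and 5, among megakaryocyte markers 2 of 14 and 9, among lymphoid markers none of 14 and 7, and among mast cell and basophil markers none of 8 and 5. In matched nuclei 3 of the neutrophil and monocyte markers were higher and 2 lower, and over all nuclei the summed score of that list was 253 to 302.6 in Int and 326.3 to 343.5 in Late. Cebpe alone sets the direction of that sum: without it, a choice made after its values were seen, the sum was 165.3 to 205.5 in Int and 149.1 to 154.9 in Late. With quantile normalization the medians of the olfactory, myeloid, macrophage, lymphoid and mast cell lists turned positive (0.021 to 0.34), so the direction of those lists rests on the scaling; those of the Hox and megakaryocyte lists went from -0.85 to -0.11 and from -0.48 to -0.09. The riser among myeloid markers, Cebpe, went from 105, 84.9 and 87.7 to 194, 173 and 173 (difference 0.96) and kept that direction, with 0.97 in matched nuclei.

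**Figure D4:**
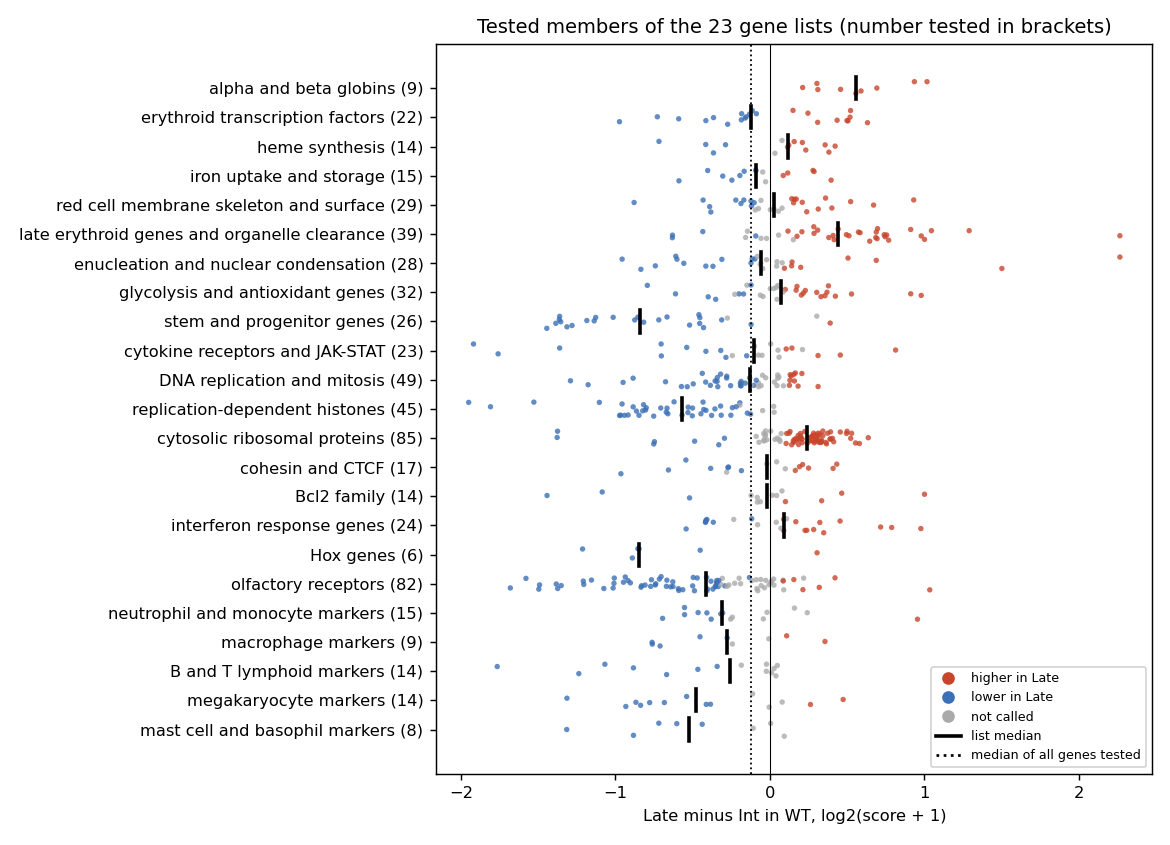
Late minus Int in WT, in log2(score + 1), of each tested member of the 23 gene lists (points coloured by call, spread vertically for legibility), with the list median (bar) and the median of all genes (dotted line). Globin, late erythroid and ribosomal protein genes lie mostly to the right, and histone and progenitor genes to the left.

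The same step in the KO libraries was used to ask which WT differences were shared. In KO, 14017 of 18292 genes tested (76.6%) were called. Among genes whose difference between genotypes was not called, Xpo7 was 2.27 in WT and 2.30 in KO, Mkrn1 1.29 and 1.23, Bcl2l1 1.0 and 0.96, Slc4a1 0.52 and 0.51, Hist1h4k -1.95 and -1.91, Gata1 -0.27 and -0.28, and Stag1 -0.96 and -1.13. For Stag1 the difference between genotypes was -0.17 and lay near the threshold (limma adjusted p = 0.0644). A missing call does not show that the genotypes were alike. A test of the difference itself, KO minus WT of Late minus Int, called 1329 of 17747 genes (7.49%), 949 of them in the positive and 380 in the negative direction. Of the members tested, it called 7 of 28 progenitor genes, 7 of 24 cytokine genes, 2 of 9 globin genes, 3 of 15 iron genes, 5 of 29 membrane genes, 6 of 39 late erythroid genes, 7 of 46 histone genes and 3 of 22 erythroid factors. It called 1 of 14 heme genes, 2 of 32 glycolysis genes, 3 of 85 ribosomal genes and 1 of 49 replication genes. That count was unstable: it was 741 with quantile normalization, 1112 with cyclic loess, 601 among genes with a mean score of at least 20, and 114 in matched nuclei. With no filter it was 0 (limma; 5088 genes had an unadjusted p under 0.05). Chosen after seeing the data, the variance trend fitted on the mean difference gave 28 and no trend gave 430. Leaving out 1 library gave 375 to 2700, with 375 without KO replicate 2, 413 without WT replicate 1, 720 without KO replicate 1 and 2700 without WT replicate 3.

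A gap between genotypes was seen for the 171 longest genes, but in all nuclei not for the longest quartile. For the 171 longest genes, the median was -1.49, -1.33 and -1.40 in the WT libraries in order of their number, against -0.89, -0.83 and -1.06 in the KO libraries, with no overlap. In matched nuclei they were -1.28, -1.15 and -1.33 in WT and -0.73, -0.75 and -0.92 in KO. This set was drawn after the pattern was seen and carries no test. Progenitor genes overlapped in all nuclei, with WT medians of -0.95, -0.93 and -0.62 and KO medians of -0.79, -0.55 and -0.57. In matched nuclei they did not overlap, at -0.68, -0.78 and -0.43 in WT and -0.39, -0.34 and -0.26 in KO. That was not particular to this list. The heme, membrane, interferon and megakaryocyte lists did not overlap in matched nuclei either, while the other lists and all genes tested did. Matching was between Int and Late within a library, and not between genotypes. The share of fragment ends in peaks, which was 65% in WT Late nuclei and 60.9% in KO Late nuclei, moves with the gap of the 171 longest genes. Its part in that gap was not tested.

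The 24 leading genes were picked for large WT values, which favours smaller values in KO. Ptprm, a receptor phosphatase, fell by 2.39 in WT and by 1.51 in KO (KO minus WT 0.88, limma adjusted p = 0.000751), and the difference was called in matched nuclei as well (0.89, limma adjusted p = 0.0306). Fli1, an ETS factor of megakaryocytes and progenitors that was named from its list, fell by 1.31 in WT and by 0.57 in KO (0.75, limma adjusted p = 0.00416; matched 1.02, limma adjusted p = 0.0186). Some erythroid genes differed the other way. Hemgn, a nuclear protein of erythroid cells, fell by 0.63 in WT and by 1.03 in KO (KO minus WT -0.39, limma adjusted p = 7.74e-05; matched -0.37, limma adjusted p = 0.0176), and Specc1 rose by 1.46 and 1.13 (-0.32, limma adjusted p = 0.00027; matched -0.28, limma adjusted p = 0.0306).

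**Figure D5:**
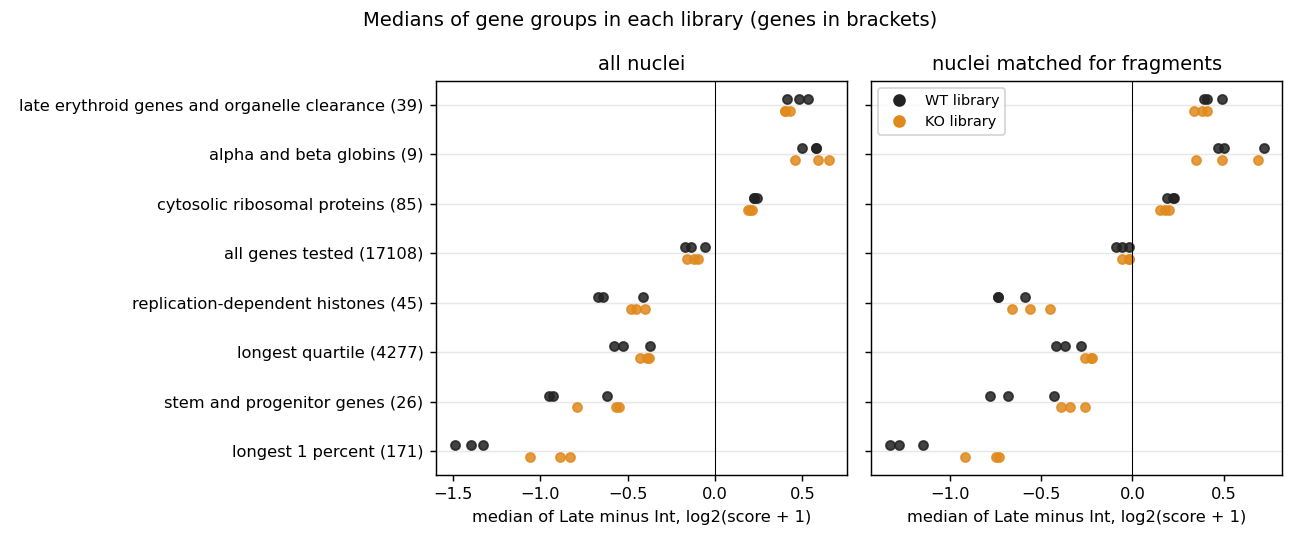
Median Late minus Int, in log2(score + 1), over gene groups in each of 3 WT and 3 KO libraries, for all nuclei (left) and nuclei matched for fragments (right); 1 point is 1 library. The medians of the 171 longest genes lie at -1.49 to -1.33 in WT and -1.06 to -0.83 in KO, whereas late erythroid genes lie close together.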

How the data were processed

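Single-nucleus ATAC libraries of Ter119+ erythroblasts were used. The deposited gene scores are a signal that the authors had scaled to a sum near 10000 per nucleus (9999.855 to 10000.12, checked); weighting and class assignment are not given in the sources used here. The submitters' processing notes name Cell Ranger and mm10. The authors' deposited table of nuclei gave fragment counts, quality scores, the fraction of ends in peaks and promoters, the nucleosome ratio, cluster and class, 2 times per nucleus; 1 copy was used.

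Scores were averaged per library and class and rescaled; a pseudocount of 1, a mean of at least 5 over the values of a fit, limma 3.58.1 in R 4.3.3 (lmFit, eBayes with a mean-variance trend, library as block, two-sided) and Benjamini-Hochberg at 0.05 were used. KO minus WT was fitted on the differences of the 6 libraries with the trend on the mean score. Int and Late of a library come from the same nuclei preparation, and their deviations from the class means correlated at 0.35, 0.21 and 0.20 in replicates 1, 2 and 3. Depth was 30506700 to 43954764 fragments in Int and 16972544 to 31007697 in Late nuclei of a WT library. All deposited nuclei of a class were kept, with no doublet caller run; the authors' doublet enrichment (median per library, averaged over 3) was 0.745 in Int and 0.653 in Late of WT, and 1.27 and 0.733 in KO, and an alternative left out the 10% of nuclei of each library with the highest values. For matching, equal numbers of Int and Late nuclei were drawn from bins of 0.25 in log2 fragments.

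Named genes were the 12 highest and 12 lowest differences among called genes that moved one way in 3 pairs, without predicted genes or genes starting within 100000 bases of one taken, plus fixed regulators and the 2 highest and 2 lowest of each list. Members and the 23 lists were chosen with earlier results of these data known. The procedure was run on simulated data with 200 of 17108 genes changed. It found 100%, 93.9% and 56.1% of changes of 1, 0.5 and 0.25, and called 14 unchanged genes. Far more genes were called in the real data, so the simulation says nothing of the effect of scaling. Python 3.11.15, numpy 2.4.6, pandas 2.3.3, scipy 1.17.1 and matplotlib 3.10.9 were used.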

Additional observations from a re-analysis of the deposited data

Results flagged for a closer look

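Of 128 genes taken by the naming rule and tested, 29 (22.7%) changed differently from Int to Late in KO and WT libraries in limma's test of the difference (adjusted p under 0.05 over all genes tested), against 7.49% of all genes. The genes were chosen partly by their WT values, so nothing is read from that share. Values are KO minus WT of Late minus Int in log2(score + 1). Genes that fell in WT and fell less in KO were Cacna2d3 (0.90), Ghr (0.89), Zfp536 (0.88), Ptprm (0.88), Mb21d2 (0.87), Ptprg (0.82), Fam155a (0.78), Fli1 (0.75), Fam19a5 (0.72), Bicc1 (0.72), Myt1l (0.66), Pmaip1 (0.64), Mitf (0.63) and Mecom (0.46). Genes that fell in WT and fell more in KO were Hemgn (-0.39), Aqp1 (-0.36), Ikzf1 (-0.26) and Diaph3 (-0.25).

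Genes that rose in WT and had a smaller value in KO were Specc1 (-0.32), Cat (-0.31), Cbfa2t3 (-0.26), Cebpe (-0.22), Rpl34 (-0.20), Tbcel (-0.19), Hbq1a (-0.18), Hba-a2 (-0.17) and Tfrc (-0.16). Tmcc2 (0.17) and Hoxc10 (0.56) rose more in KO. In nuclei matched for fragments, the difference was called for Specc1, Ptprm, Hemgn, Rpl34 and Fli1 and not for the others. A lost call does not show that a difference was gone: in matched nuclei Mb21d2 stood at 1.05, Fam19a5 at 0.87, Ghr at 0.93 and Cat at -0.31. With the variance trend on the mean difference, chosen after seeing the data, Ptprm was the only one of the 29 called, and with no filter none was. The causes of these differences were not tested.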

How the results depend on the processing

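The number of genes called from Int to Late in WT was 9903 to 13680 when 1 replicate was left out, and stayed within that range under the other alternatives at the same filter; it was 7440 of 10018 genes with a mean score of at least 20 and 17563 of 24333 with no filter. Without the replicate block, that is without pairing by library, it was 11464 in WT and 13248 in KO. In KO it was 9200 in matched nuclei and 12891 to 13402 with 1 replicate left out. For KO against WT (1329), it was 741 with quantile normalization, 601 at the stricter filter, 0 with no filter, 114 in matched nuclei, 1844 with the replicate number as a block, 375 to 2700 with 1 library left out, and, chosen after seeing the data, 28 with the trend on the mean difference and 430 with no trend. Deviations of same-numbered WT and KO libraries correlated at 0.12, -0.02 and 0.13, and not every library correlated best with that of its own number. With 3 libraries per genotype these values cannot tell whether same-numbered libraries shared a batch. The labels state no pairing of WT and KO libraries. Breadth in matched nuclei changed by -199 genes for 50% of the score, 0.913 points for the top 1000 genes and -0.223 points for the top 100, the last against 0.0975 in all nuclei. The 24 leading genes kept their calls in every alternative in which they were tested. At a mean score of at least 20 only the 12 that rose were tested, so that filter says nothing of those that fell. Sizes moved: among the 12 that fell most, 4 moved by over 1.5 times with a pseudocount of 5 (range -1.85 to -1.35), 3 with quantile normalization (-1.98 to -1.5) and 3 with cyclic loess (-2.04 to -1.5).

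The direction turned for the following named genes. With quantile normalization and cyclic loess in turn, Spi1 was 0.17 and 0.16, Tfrc -0.059 and -0.056, Epor -0.073 and -0.084, Gbp3 0.22 and 0.21, Hoxc4 0.35 and 0.32, Cd68 -0.038 and -0.045, and Hist3h2bb-ps -0.040 and -0.17. Hist4h4 was -0.17 with cyclic loess and Tal1 0.021 with median centring. In matched nuclei Hist3h2bb-ps was -0.052, Hist4h4 -0.046 and Vpreb3 -0.017. Weighted by fragments, Tcf7 was -0.010 and Prss34 -0.023, and Prss34 was -0.026 without the highest doublet scores. With 1 replicate left out, Tcf7 was -0.015 to 0.067, Vpreb3 -0.057 to 0.17 and Prss34 -0.073 to 0.083, lowest without replicate 3. With quantile normalization the list medians were 0.077 for olfactory receptors, 0.34 for neutrophil and monocyte markers, 0.10 for macrophage, 0.021 for lymphoid and 0.13 for mast cell markers. The causes were not tested. Genes with a mean score under 5 were not tested at this depth.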
